A study of Mus musculus with 6 samples.

Results

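The genes described here, 10 chosen by symbol, serve MHC class I antigen presentation: the heavy chains H2-K1 and H2-D1, the light chain B2m, the peptide loading genes Tap1, Tap2 and Tapbp, the immunoproteasome subunits Psmb8, Psmb9 and Psmb10, and the regulator Nlrc5. All 10 were found among the 17030 genes of the deposited table, and all 10 were among the 14763 genes tested. The RNA was that of mononuclear cells taken from skeletal muscle of male mice of strain C57BL/B6, in 6 libraries. The labels do not say whether animals were pooled, and each library is called a mouse here. Every mouse bore a Lewis lung carcinoma (LLC) tumour, and tamoxifen was given on days 10 to 14 counted from the injection of the tumour cells. Of these, 3 mice were Pax7 Cre ErT x IKKbfl/fl, written Pax7-CreERT here, and 3 were IKKbfl/fl without Cre, the controls. IKKb, encoded by Ikbkb, is a kinase of the canonical NF-kB pathway, and both groups carried its floxed alleles. Cre was driven by Pax7, which marks muscle satellite cells, whereas the preparation held all mononuclear cells. No group with Cre and without floxed alleles was analysed here, so an effect of Cre and one of the deletion cannot be told apart. The age of the mice is not given in the sources used here.

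Class I molecules display peptides from inside the cell to CD8 T cells, on a heavy chain paired with B2m. The peptides are cut by the proteasome, carried into the endoplasmic reticulum by the TAP transporter, a dimer of Tap1 and Tap2, and loaded with the help of tapasin (Tapbp). Interferon-gamma induces Psmb8, Psmb9 and Psmb10, which take the places of the constitutive catalytic subunits Psmb5, Psmb6 and Psmb7. Class I promoters hold sites for NF-kB and for interferon regulatory factors, and a conserved module with an X2 box and a Y box through which NLRC5 acts together with the RFX complex, CREB or ATF factors and NF-Y.

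The promoters of the heavy chains and of B2m are shown because the letters of an NF-kB site stand in each, and the floxed gene encodes a kinase of that pathway. The interval between Tap1 and Psmb9 is shown because both genes start from it, in opposite directions. Sequences are from RefSeq on GRCm38.p6 (8 of the 10 genes matched its promoter table, and Tap2 and Nlrc5 did not), read 5′ to 3′ on the strand of the gene, or of Tap1 for the shared interval. Each promoter holds the 250 bases before the annotated start, the most upstream one where a gene had several windows. Capitals mark matches on either strand to the NF-kB pattern (GGGA, 4 bases of any kind, CC), and to AANNGAAA (interferon regulatory factors), TGACG (the X2 core) or ATTGG (the Y box). The intervals are chr17:34000348-34000597 (minus strand) for H2-K1, chr17:35262844-35263093 for H2-D1, chr2:122147437-122147686 for B2m and chr17:34187331-34187555 for Tap1 and Psmb9.
H2-K1: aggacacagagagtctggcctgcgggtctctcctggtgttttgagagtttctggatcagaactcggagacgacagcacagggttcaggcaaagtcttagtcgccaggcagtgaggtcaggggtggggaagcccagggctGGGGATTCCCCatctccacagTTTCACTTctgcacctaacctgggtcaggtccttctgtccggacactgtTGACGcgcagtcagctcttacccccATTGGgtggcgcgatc
H2-D1: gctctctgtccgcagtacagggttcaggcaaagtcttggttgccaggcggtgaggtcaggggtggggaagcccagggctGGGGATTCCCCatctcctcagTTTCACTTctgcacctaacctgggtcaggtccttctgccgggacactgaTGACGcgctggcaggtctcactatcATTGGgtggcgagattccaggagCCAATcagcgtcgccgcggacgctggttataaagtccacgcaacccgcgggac
B2m: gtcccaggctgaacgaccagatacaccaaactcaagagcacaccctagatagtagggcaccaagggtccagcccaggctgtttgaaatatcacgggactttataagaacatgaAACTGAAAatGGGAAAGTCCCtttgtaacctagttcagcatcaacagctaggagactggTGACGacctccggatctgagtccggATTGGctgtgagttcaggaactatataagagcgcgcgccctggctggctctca
Tap1-Psmb9: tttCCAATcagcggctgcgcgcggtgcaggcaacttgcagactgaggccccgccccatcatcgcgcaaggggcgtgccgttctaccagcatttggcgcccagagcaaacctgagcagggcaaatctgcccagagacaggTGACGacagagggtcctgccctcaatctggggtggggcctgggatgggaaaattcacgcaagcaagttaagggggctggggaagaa

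Both heavy chain promoters held the same run, GGGGATTCCCC, in which overlapping matches to the NF-kB pattern lie on the 2 strands. It began 111 bases before the start of H2-K1 and 171 before that of H2-D1. H2-K1 had more than 1 window, so these distances depend on the start that was used. With the sequences shifted by 60 bases, 87.4% of 190 compared bases were equal. In B2m the NF-kB match was GGGAAAGTCCC, 127 bases before the start, beside AACTGAAA at 137 bases before. Over 32851 promoter windows of 300 bases, 20.7% held the NF-kB pattern, 23.9% AANNGAAA, 20.8% TGACG and 37.4% ATTGG. The corresponding counts among the 8 matched genes were 3, 3, 5 and 6. Neither Tap1 nor Psmb9 had the NF-kB or interferon regulatory factor letters in its window.

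The X2 and Y letters had the same spacing in all 3 promoters of the class I chains. From the first base of TGACG to the first base of ATTGG there were 25 bases in H2-K1, H2-D1 and B2m. This spacing was looked for after the matches had been seen. Of the 32851 windows, 31 held TGACG and ATTGG at that distance (0.0944%), and they belonged to 27 genes. H2-M3, a non-classical class I heavy chain, was the 1 other H2 gene among them. A match is a description of letters and shows no binding.

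**Figure D1:**
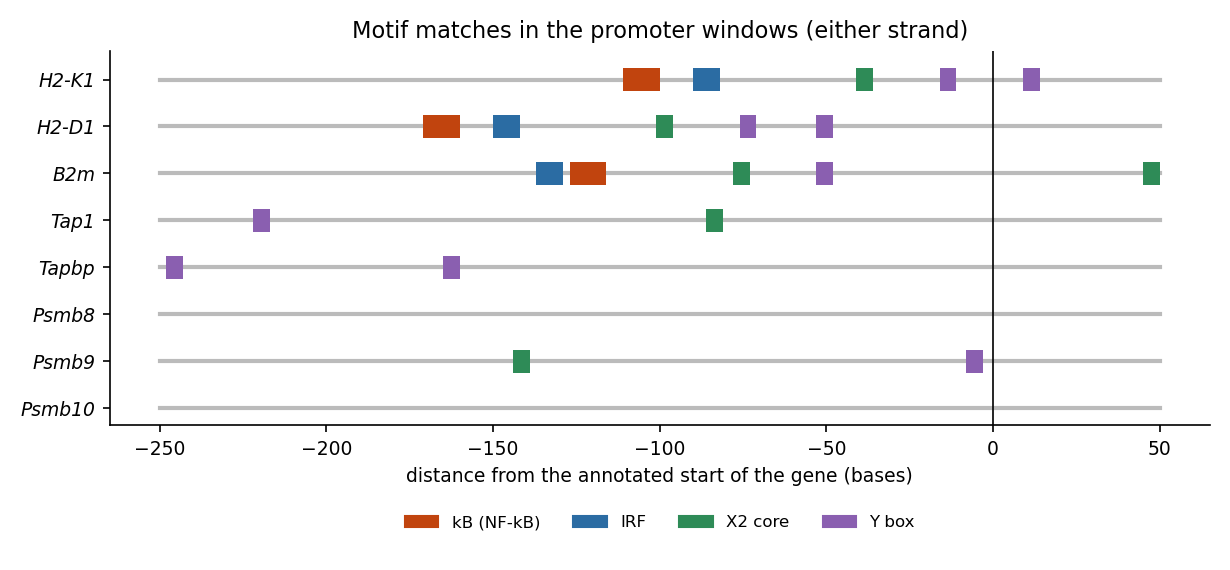
Positions of motif matches on either strand in the promoter windows of the 8 genes in the RefSeq table, drawn as distance in bases from the annotated start (0, vertical line). The 3 chains of the class I molecule carry the NF-kB, interferon regulatory factor, X2 and Y letters, with X2 and Y 25 bases apart.

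Depth, estimated from the CPM (reads per 1000000 assigned reads) that 1 read is worth, ran from 4054000 to 13355000 reads, and at 10 CPM the counting SD was 8.65% to 15.7%. Control replicate 3 was the shallowest and stood apart, at 51.6 on the first principal component (41.3% of the variance) against -17.0 to 0.20 for the other 5. Haemoglobin genes took 12.6% of its CPM, against 1.84% to 4.83% elsewhere. Ikbkb, the floxed gene, measured 51.4, 48.4 and 52.7 CPM in the Pax7-CreERT mice and 51.3, 57.4 and 48.8 CPM in the controls, and the groups overlapped, so total Ikbkb RNA does not separate the genotypes in these mixed cells. A gene total does not resolve a deleted exon. Endothelial markers summed to 6319 to 8914 CPM and satellite cell markers to 179 to 233 CPM over the 6 libraries. Of 9 T and NK cell markers examined, 4 stayed under 1 CPM in every library, among them Cd3e.

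Transcripts of the class I chains were far above those of the processing machinery, and this order was the same in every library. Per kb of exon (GENCODE M21), the mean over the 6 libraries was 2666 ± 671 CPM for B2m, 1007 ± 91.0 for H2-K1 and 619.9 ± 23.3 for H2-D1 (SD, n = 6). Tapbp followed at 69.6 ± 13.6, Tap1 at 37.5 ± 7.97, Psmb8 at 36.1 ± 7.16, Tap2 at 23.7 ± 3.97 and Psmb9 at 21.2 ± 4.50 CPM per kb. Nlrc5 (7.63 ± 1.93) and Psmb10 (6.51 ± 1.44) were the least abundant. Neighbours in the order did not overlap between B2m, H2-K1, H2-D1, Tapbp and Tap1, nor between Psmb9 and Nlrc5. Tap1 and Psmb8, Tap2 and Psmb9, and Nlrc5 and Psmb10 overlapped and did not keep their order in all 6 libraries, while Psmb8 and Tap2 overlapped and did. Together the 10 genes took 0.492% to 0.707% of all CPM.

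**Figure D2:**
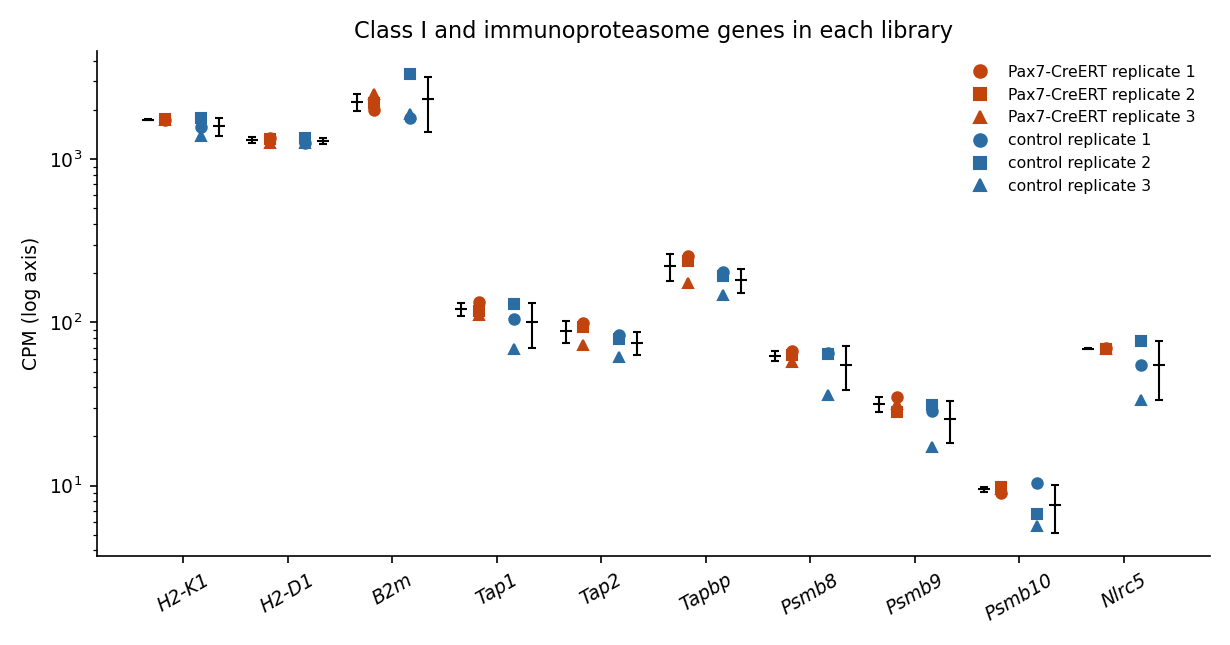
CPM of the 10 genes in each library on a log axis, with black bars for the mean and SD of each group of 3. Points of the groups overlap for every gene, and control replicate 3 (blue triangles) is the lowest point for 8 of the 10.

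The comparison asks how Cre directed at IKKb in the Pax7 lineage of tumour-bearing mice alters these transcripts in the mixed cells. None of the 10 genes passed in limma (adjusted p under 0.05 over all 14763 genes), where 0.00677% of all genes did, and the lowest adjusted p among the 10 was 0.896. At an unadjusted p under 0.05 there were 0 of 10, against 5.52% of all genes (4.58% higher and 0.942% lower). The groups overlapped in all 10 genes, whereas 8.69% of all genes lay wholly higher and 2.28% wholly lower in the Pax7-CreERT mice. Of the 10, 9 had a log2 fold change above 0, as did 68.0% of all genes. The median log2 fold change was 0.26, against 0.09 over all tested genes, and without control replicate 3 these were 0.06 and 0.04. In bulk RNA, fewer cells of a type and less RNA per cell cannot be told apart. Since the labels do not say that the libraries came from separate animals, the p-values measure only the spread between these libraries, which may be technical.

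The heavy chains were the most even of the 10 genes. H2-K1 (chromosome 17, 33996012 to 34000347, minus strand, mm10) measured 1749, 1754 and 1734 CPM in the Pax7-CreERT mice and 1582, 1784 and 1396 CPM in the controls. The highest and the lowest value were both controls. Group means of H2-K1 stood at 1746 ± 10.7 and 1587 ± 194 CPM (SD, n = 3 each). The difference on the log2 scale was 0.14 (SE 0.18), with a 95% interval of -0.25 to 0.54. It was 0.056 without control replicate 3, 0.055 with median-ratio scaling and 0.23 without control replicate 2. H2-D1 (chromosome 17, 35263094 to 35267497) measured 1354, 1329 and 1257 CPM against 1259, 1358 and 1262 CPM. Its CV over the 6 libraries was 3.76%, the smallest of the 10 genes. Its log2 fold change was 0.02 (interval -0.33 to 0.37), and it was -0.07 with median-ratio scaling and -0.03 with haemoglobin left out of the totals. Heavy chain genes share sequence: 8.79% of the 50-base windows of H2-K1 and 14.3% of those of H2-D1 occurred in transcripts of other genes, so their reads may be divided differently by another counting rule.

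B2m, the light chain shared by all class I molecules, varied most among the 3 chains. B2m (chromosome 2, 122147687 to 122153082) stood at 2003, 2212 and 2522 CPM in the Pax7-CreERT mice and at 1788, 3343 and 1889.7 CPM in the controls. Control replicate 2 was far above the other 5 libraries, while the 2 remaining controls were the lowest. The summed heavy chains stood at 0.94 times B2m in that library and at 1.19 to 1.59 times in the others, on the CPM scale. The log2 fold change was -0.01 (SE 0.26, interval -0.59 to 0.58, adjusted p = 0.997), and without control replicate 2 it was 0.28. None of the 50-base windows of B2m occurred in another gene. The summed endothelial markers were also highest in control replicate 2, at 8914 CPM against 6319 to 7129 CPM. Of the 9 genes of that list 4 were highest there (Pecam1, Cdh5, Tie1 and Ly6c1), while Vwf was lowest there, at 346 CPM against 372 to 452 CPM. The part of endothelial RNA in the B2m value was not tested.

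Peptide loading genes followed 2 patterns. Tap1, the first TAP subunit, measured 133, 118 and 111 CPM in the Pax7-CreERT mice and 104, 130.4 and 68.3 CPM in the controls. The groups overlapped, and control replicate 3 lay 34.5% below the next lowest library. The log2 difference for Tap1 was 0.29 (SE 0.21, interval -0.18 to 0.77), and 0.04 without that library. Tap2, the second subunit, measured 98.7, 94.0 and 72.7 CPM against 84.1, 79.2 and 61.7 CPM. Tapbp, which bridges TAP and the class I molecule, measured 255, 236 and 175 CPM against 203, 194 and 147 CPM. Both were highest in Pax7-CreERT replicates 1 and 2 and low in replicate 3 of either group. Centred on the gene's own mean, Tap2 and Tapbp differed by 0.035 log2 per library on average, the closest of the 45 pairs of members. Their log2 fold changes were 0.24 (SE 0.17) and 0.29 (SE 0.18), and 0.10 and 0.14 without control replicate 3. Tap1 lies at 34187556 to 34197225, Tap2 at 34204479 to 34216321 and Tapbp at 33919478 to 33929290 on chromosome 17, all on the plus strand.

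The immunoproteasome genes of the MHC region had profiles close to that of Tap1 over the 6 libraries. Psmb8, the chymotrypsin-like inducible subunit (chromosome 17, 34198195 to 34201454), measured 66.5, 63.3 and 57.4 CPM against 65.4, 63.7 and 35.8 CPM. The other libraries lay close together, and control replicate 3 was 37.7% below the lowest of them. Psmb9 (34182099 to 34187330, minus strand), whose start faces that of Tap1 across 225 bases, measured 35.0, 28.2 and 31.5 CPM against 28.8, 31.1 and 17.3 CPM. Again 1 control was low, by 38.7%. Per kb, Tap1 stood at 1.60 to 1.92 times Psmb9 in the 6 libraries, control replicate 3 included (1.81). The log2 fold changes were 0.23 (SE 0.22) for Psmb8 and 0.32 (SE 0.22) for Psmb9. Without control replicate 3 they were -0.05 and 0.07.

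Psmb10 lies outside the MHC, on chromosome 8 at 105935728 to 105938392, and had another pattern. Its levels were 9.04, 9.81 and 9.57 CPM in the Pax7-CreERT mice and 10.4, 6.74 and 5.67 CPM in the controls. The 3 Pax7-CreERT values lay between those of control replicates 1 and 2. Its log2 fold change was 0.32 (SE 0.23, interval -0.19 to 0.83). Leaving out control replicate 3 gave 0.16, and leaving out control replicate 1, its highest library, gave 0.54 (adjusted p = 0.689 there, the lowest of the 10 genes under any setting). Counting alone gave Psmb10 an SD of 8.74% to 20.9% of its value in a library.

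Nlrc5, the transactivator of class I genes, had the highest CV over the 6 libraries, at 25.3%, close to that of B2m. Without control replicate 3 the CV of Nlrc5 was 11.5%, and that of B2m, 25.5%, was the highest of the 10. Nlrc5 (chromosome 8, 94472763 to 94527272) stood at 69.3, 68.7 and 69.0 CPM in the Pax7-CreERT mice and at 55.0, 76.4 and 33.3 CPM in the controls. The 3 Pax7-CreERT values were nearly equal and lay inside the range of the controls. The means came to 69.0 ± 0.309 and 54.9 ± 21.5 CPM (SD, n = 3 each). Counting alone gave Nlrc5 an SD of 3.30% to 5.43% of its value in the Pax7-CreERT libraries. Their SD of 0.309 CPM is smaller than that, so it understates the spread to be expected. The log2 fold change of 0.40 was the largest of the 10 (SE 0.25, interval -0.15 to 0.95, adjusted p = 0.896), and it was 0.09 without control replicate 3. An exact 2-sided permutation test gave p = 0.4 for Nlrc5, and 0.3 to 1 over the 10 genes, where 3 mice against 3 cannot give less than 0.1.

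**Figure D3:**
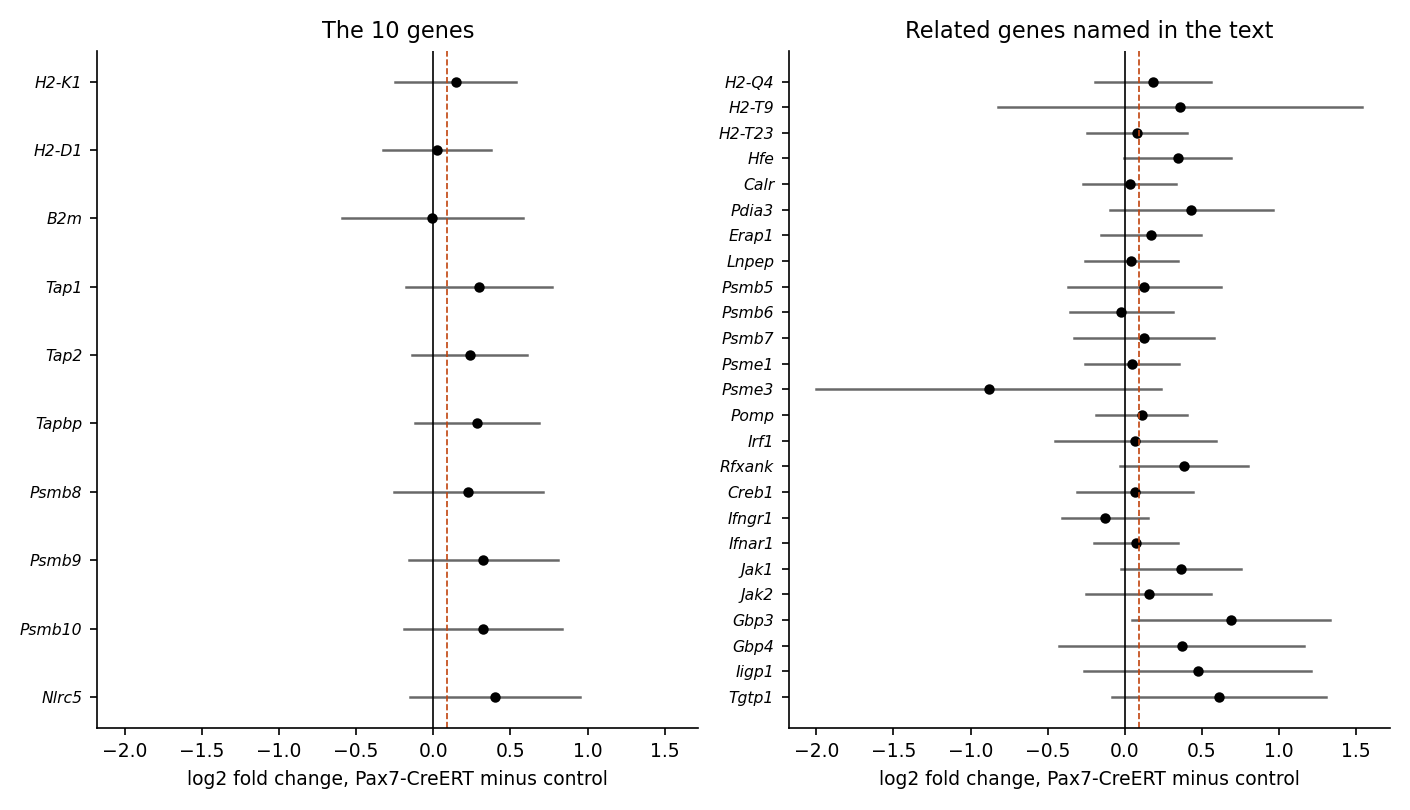
Log2 fold changes (Pax7-CreERT minus control, dots) with 95% intervals (lines) from limma, for the 10 genes and for related genes; the dashed line is the median of all tested genes, 0.09. All 10 intervals of the left panel include 0.

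Inducible and constitutive catalytic subunits were compared within each library, where the library total cancels from a plain ratio. Per kb of exon, Psmb8 was at 4.85, 3.49 and 2.55 times its counterpart Psmb5 in the Pax7-CreERT mice and at 3.43, 4.02 and 2.58 times in the controls. It exceeded Psmb5 in all 6 libraries. Psmb9 was at 0.858, 0.673 and 0.732 times Psmb6 against 0.594, 0.816 and 0.413 times, and Psmb10 at 0.732, 0.662 and 0.885 times Psmb7 against 0.731, 0.641 and 0.565 times. Both stayed below their counterparts. The groups overlapped in all 3 ratios. For the log2 ratios 1 CPM was added to each value, so there the total cancels only in part. On the log2 scale the differences were 0.10, 0.34 and 0.20, with exact 2-sided permutation p of 0.7, 0.3 and 0.2. Adjusted over the 3 ratios, these p-values were 0.7, 0.45 and 0.45. Leaving out Pax7-CreERT replicate 1 or control replicate 3 turned the Psmb8 difference to -0.11 or -0.08. The Psmb9 difference was 0.10 on leaving out control replicate 3 and 0.58 on leaving out control replicate 2. The Psmb10 difference was 0.094 without Pax7-CreERT replicate 3 and 0.12 without control replicate 3. With 0.1 or 5 CPM added in place of 1 it was 0.23 or 0.13. The constitutive genes had log2 fold changes of 0.13 (Psmb5), -0.02 (Psmb6) and 0.12 (Psmb7), and none passed. Psmb5 was at 7.57 to 12.4 CPM and Psmb7 at 8.88 to 13.1 CPM, so counting error weighs on their ratios. Sequence shared with other genes was not examined for the constitutive genes.

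**Figure D4:**
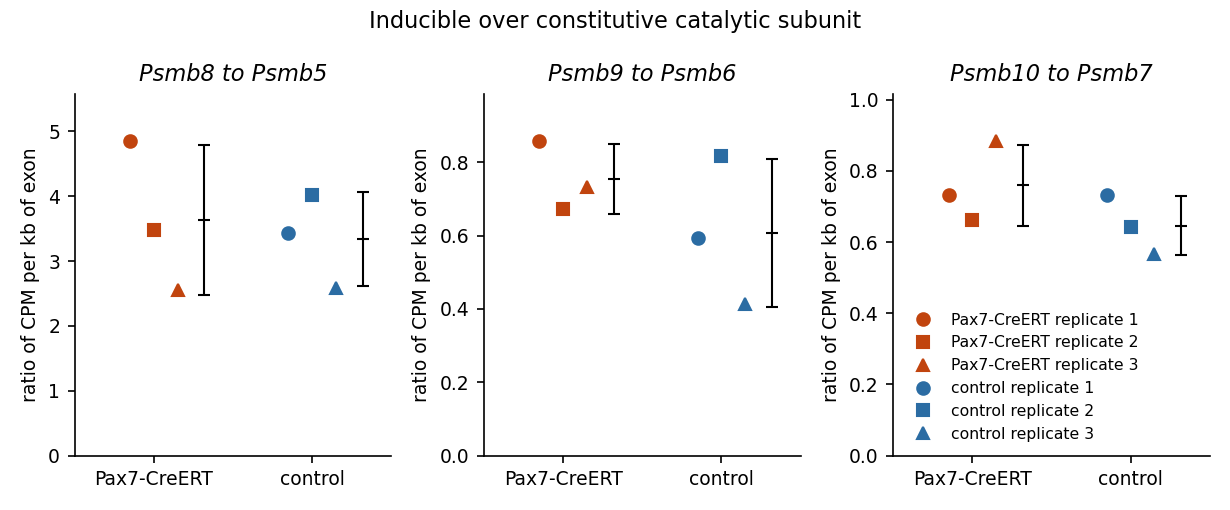
Ratio of each inducible catalytic subunit to the constitutive one it replaces, in CPM per kb of exon, by library; black bars are mean and SD of 3 mice. Psmb8 is above Psmb5 in all 6 libraries, and the other 2 ratios are below 1.

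Across the libraries, the members diverged from their own means mainly in control replicate 3. Of the 10, 8 were lowest there, against 39.8% of all tested genes. With haemoglobin left out of the totals it was again 8, against 27.5%, and with median-ratio scaling 8, against 26.7%. On the centred log2 scale the library stood at -0.83 for Nlrc5, -0.67 for Psmb8 and Psmb9 and -0.66 for Tap1. For H2-K1 it stood at -0.25 and for H2-D1 at -0.05, while the median of all tested genes was -0.12 and that of the 3 constitutive subunits -0.23. With haemoglobin left out, Nlrc5 remained 33.8%, Psmb8 32.1%, Psmb9 31.1% and Tap1 28.4% below the next lowest library, and H2-K1 3.55%. Tapbp was 8.19%, Tap2 7.54% and Psmb10 6.06% below it. Counting alone gave Tapbp, Tap2 and Psmb10 an SD of 4.09%, 6.32% and 20.9% in control replicate 3, so their low rank is less certain. This pattern concerns 1 mouse, and no test was made of it.

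By sum, leukocyte markers were highest in that same library. Of 7 leukocyte genes the sum was 514 CPM in control replicate 3 against 225 to 346 CPM in the others, and none of the 7 was lowest there. The 8 macrophage genes summed to 800.5 against 242 to 496 CPM, and the 7 dendritic cell and class II genes to 962 against 246 to 659 CPM. The 6 B cell genes summed to 170.2 against 13.3 to 101.6 CPM. Sums of myofibre, mural cell, satellite cell and Schwann cell markers were lowest in that library on the CPM scale. So were 8 of the 10 class I genes, and 39.8% of all tested genes. The 8 satellite cell genes summed to 179 against 201 to 233 CPM, with 3 of 8 lowest there. The 5 Schwann cell genes summed to 899 against 915 to 1239.6 CPM, with 4 of 5. The 8 myofibre genes summed to 316 against 416 to 1150.4 CPM, with 8 of 8 lowest there, and the 8 pericyte and smooth muscle genes to 6767 against 8284 to 10968 CPM, with 6 of 8. Of 13 marker lists, 3 had sums wholly higher in the Pax7-CreERT mice and 0 wholly lower. These were myofibre (585 to 1150.4 against 316 to 530.2 CPM), pericyte and smooth muscle (8743 to 10968 against 6767 to 8707 CPM) and Schwann cell (963 to 1239.6 against 899 to 957 CPM). The Schwann cell ranges lay close together. Of single tested genes, 8.69% lay wholly higher and 2.28% wholly lower. The sums were not rescaled for haemoglobin, which took 12.6% of the CPM of control replicate 3, so the separations may depend on scaling. With haemoglobin left out of the totals, the Schwann cell groups would overlap, and control replicate 3 would not be lowest for that list. Over the groups, the ranges were 259 to 346 CPM in the Pax7-CreERT mice and 225 to 514 CPM in the controls for the leukocyte list. The part of cell mixture in the class I values was not tested.

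**Figure D5:**
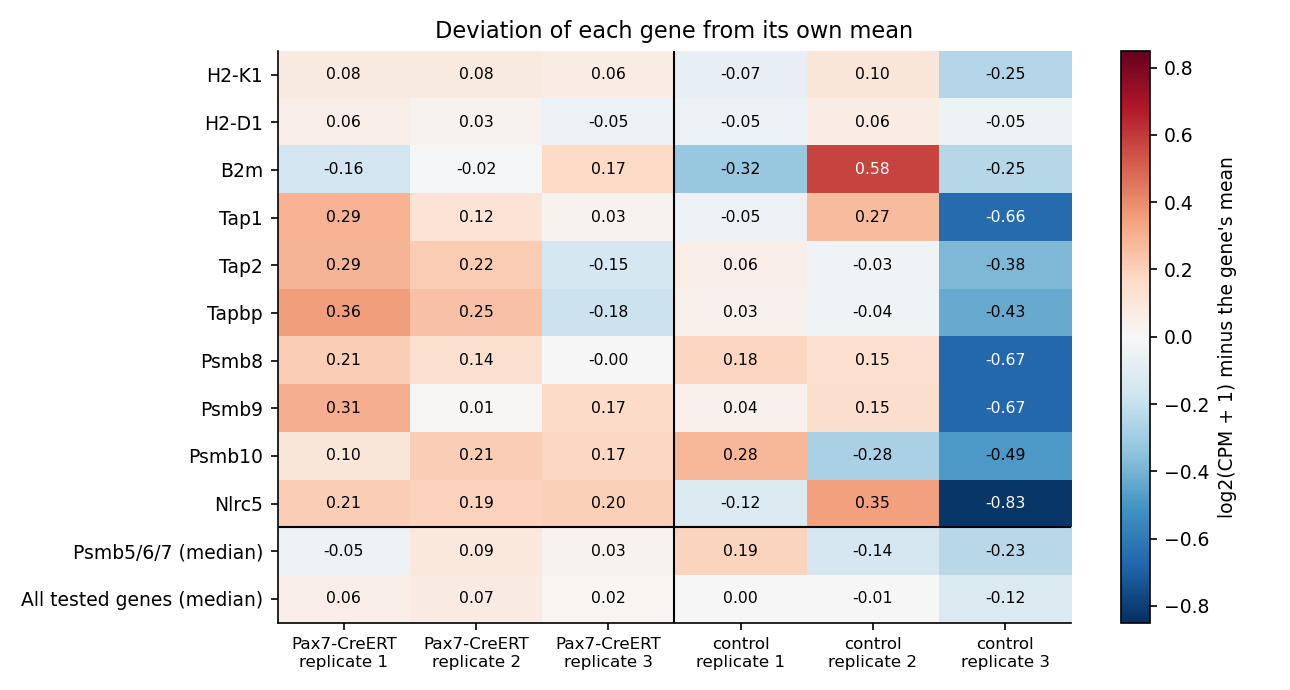
Deviation of log2(CPM + 1) from each gene's mean over the 6 libraries, with the median of the constitutive subunits and of all tested genes below. Control replicate 3 is at -0.83 for Nlrc5 and near 0 for H2-D1, and B2m is at 0.58 in control replicate 2.

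Other genes of the pathway were read from lists chosen by role. Of 65 tested, 53 (81.5%) had a log2 fold change above 0 and 12 below, with a median of 0.12, and none passed. Over all tested genes 68.0% were above 0, with a median of 0.09, and 59.0% and 0.04 without control replicate 3. The groups did not overlap in 5 of the 65, with 4 wholly higher and 1 wholly lower in the Pax7-CreERT mice. Over all tested genes these shares were 8.69% and 2.28%. Among 18 other heavy chains that pair with B2m, or are built like those that do, 13 were above 0 and 5 below, with a median of 0.13, and without control replicate 3 it was 11 of 18 above 0, with a median of 0.03. H2-Q4, a Qa region chain, measured 437 ± 43.2 against 389 ± 75.3 CPM, and H2-T23, which encodes Qa-1, 232 ± 36.3 against 219 ± 15.4 CPM. Hfe, the iron-regulating member, measured 51.8 ± 9.38 against 40.2 ± 1.30 CPM, with groups that did not overlap (log2 fold change 0.34, adjusted p = 0.896). The log2 fold change of Hfe was 0.32 without control replicate 3. H2-T9 was faint and scattered, at 6.93 ± 2.70 against 6.67 ± 6.79 CPM. It lies wholly within the interval of another of these heavy chain genes on the same strand, so the split of reads between them is uncertain.

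None of the 7 chaperone and trimming genes and none of the 3 proteasome activator and assembly genes tested passed. Their median log2 fold changes were 0.12 and 0.05, and 0.02 and -0.03 without control replicate 3. Calr, calreticulin, measured 465 ± 33.7 against 454 ± 31.3 CPM, and Pdia3, the thiol oxidoreductase of the loading complex, 37.9 ± 7.10 against 28.5 ± 8.88 CPM (log2 fold change 0.43, adjusted p = 0.896). The peptidases Erap1 and Lnpep measured 196 ± 16.0 against 175 ± 25.3 CPM and 361 ± 20.5 against 351 ± 34.6 CPM. Psme1, a subunit of the interferon-induced PA28 activator, measured 77.7 ± 1.19 against 75.6 ± 11.0 CPM, and the assembly factor Pomp 40.7 ± 1.55 against 37.7 ± 3.10 CPM. Psme2, the partner of Psme1, was at 0 to 1.02 CPM and was not tested, while Psme2b was at 85.6 to 130.5 CPM. Psme3, the nuclear PA28 subunit, measured 148, 124 and 231 CPM against 194, 171 and 811 CPM (log2 fold change -0.88, adjusted p = 0.896), and the log2 fold change was -0.17 without control replicate 3. The highest of these values was in control replicate 3, which also had the highest haemoglobin share, and the part of red cell RNA was not tested. Of the 50-base windows of Psme2, 59.3% occurred in transcripts of Psme2b, so the split between these 2 genes is uncertain.

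Among the factors that act on class I promoters, and the interferon pathway above them, no gene passed. Of 16 factors 14 were above 0, with a median of 0.10, against 68.0% and 0.09 over all tested genes. Without control replicate 3 it was 10 of 16, with a median of 0.03, against 59.0% and 0.04 over all tested genes. Irf1 measured 323 ± 56.7 against 316 ± 94.5 CPM and Creb1 265 ± 28.7 against 256 ± 50.7 CPM. Rfxank, an RFX subunit, measured 18.6 ± 1.90 against 14.1 ± 2.69 CPM with groups that did not overlap (log2 fold change 0.39, adjusted p = 0.896). Without control replicate 3 the log2 fold change of Rfxank was 0.50 (unadjusted p = 0.0240, adjusted p = 0.711). Of 8 interferon receptor and signalling genes 6 were above 0, with a median of 0.07, and without control replicate 3 it was 4 of 8, with a median of 0.003. Ifngr1 was lower in every Pax7-CreERT mouse, at 340.5 ± 7.36 against 372 ± 21.2 CPM (log2 fold change -0.13, adjusted p = 0.914), and Ifnar1 measured 144 ± 9.45 against 137 ± 8.12 CPM. The kinases Jak1 and Jak2 measured 127 ± 16.2 against 99.6 ± 20.8 CPM and 118 ± 10.2 against 108 ± 26.4 CPM. Their log2 fold changes were 0.36 and 0.15. Ifng and Ifnb1 were not analysed here.

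The interferon-gamma induced GTPases, which defend cells against intracellular microbes, had the same low library as Nlrc5, Psmb8, Psmb9 and Tap1. Their sum was 3749, 3871 and 3700.2 CPM in the Pax7-CreERT mice and 3332, 4086 and 1530.5 CPM in the controls. All 10 were lowest in control replicate 3, against 39.8% of all tested genes. All 10 had a log2 fold change above 0, with a median of 0.47, and without that library 8 of 10 did, with a median of 0.05. Gbp3, a guanylate binding protein, measured 159 ± 19.7 against 105 ± 42.9 CPM, with groups that did not overlap (log2 fold change 0.69, unadjusted p = 0.0384, adjusted p = 0.891). Without control replicate 3 its log2 fold change was 0.28 (unadjusted p = 0.0528). Iigp1 measured 1320.3 ± 41.2 against 1042 ± 481 CPM, Gbp4 566 ± 52.8 against 490 ± 251 CPM, and Tgtp1 420 ± 59.5 against 297 ± 135 CPM.

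Among all tested genes of at least 10 CPM, those most like the members were sought by the mean absolute difference between centred log2 profiles over the 6 libraries. The nearest to the members' mean were Zfp212 (0.018), Pcdhb16 (0.026), Ctbs (0.027), Sbf2 (0.027) and Pelo (0.028). The median over the 9418 genes compared was 0.18. Each member was compared in the same way with the mean of the other 9. Of the members, H2-K1 was nearest to the rest (0.087), then Psmb8 (0.092) and Tap1 (0.095), and B2m was farthest (0.30). Psmb10 (0.185) and Nlrc5 (0.178) stood near the median of the genes compared (0.181). The likeness is of profiles over 6 libraries, and it is given as a description.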

How the data were processed

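RNA-seq values of 6 libraries, 3 for each genotype, were deposited by the authors as CPM, which sum to 1000000 in each library with 0.0001 added to each value; that constant was subtracted. Partek, DESeq2 and mm10 are named without a role, per the submitters' processing notes. The aligner, counting rule and annotation are not given in the sources used here. Depth was estimated from the CPM of 1 read; 92.8% to 93.8% of values up to 20 reads came out whole (within 0.05 of a read), under the 95% required, so no count test was run. Genes that reached 1 CPM in 3 or more libraries were tested on log2(CPM + 1) with limma 3.58.1 in R 4.3.3 (mean-variance trend, Benjamini-Hochberg adjustment), which was tested on simulated data. Fold changes on this scale understate those of low genes. Gene ends were lowered by 1 base, since 11051 of 17013 matched genes ended 1 base past RefSeq. The members and lists were chosen with earlier results of these data known. Genes named beside the members were, in each list, the 2 most abundant, the 2 with the largest absolute log2 fold change and any with an unadjusted p under 0.05, plus the constitutive subunits and the 5 genes with the nearest profiles. A gene and a motif that this rule or search covered are not reported here. Alternatives changed the pseudocount, filter, scaling, variance model and libraries. H2-Q2, H2-Q8, H2-T3, H2-M2, H2-Bl, Ifng and Ifnb1 were not analysed here.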

Additional observations from a re-analysis of the deposited data

How the results depend on the processing

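None of the 10 genes passed under any alternative run. At an unadjusted p under 0.05 there was Tapbp without Pax7-CreERT replicate 3, Psmb10 without control replicate 1, and Tap1 and Nlrc5 without control replicate 2. The count of all genes passing was 1 (Zfp697), 1 with no mean-variance trend (Zfp433 in its place), 2 with no filter (both), and 0 to 1 when each library was left out. With array weights the members' median log2 fold change was 0.13 in place of 0.26, with Nlrc5 at 0.15, Tap1 at 0.11, Psmb8 at 0.062 and B2m at -0.19. The log2 fold change of H2-D1 was -0.068 with median-ratio scaling and -0.031 without haemoglobin genes. Leaving out each library gave -0.17 to 0.28 for B2m, above 0 without Pax7-CreERT replicate 1 (0.074), Pax7-CreERT replicate 2 (0.0026) or control replicate 2 (0.28). For Psmb8 the range was -0.050 (without control replicate 3) to 0.38. The log2 ratio of Psmb8 to Psmb5 ranged from -0.11 to 0.31 when each library was left out. Its value was -0.11 without Pax7-CreERT replicate 1 and -0.08 without control replicate 3. The causes were not tested. Scaling moved the share of all tested genes with a log2 fold change above 0 from 68.0% to 51.4% (median-ratio), 50.9% (quantile) and 58.3% (without haemoglobin), and their median from 0.09 to 0.006, 0.004 and 0.04. Genes at an unadjusted p under 0.05 then split into 388 higher and 291 lower, 366 and 314, and 532 and 209, against 676 and 139. No paired analysis was possible because replicates were numbered by record order, which ties no mouse of one genotype to a mouse of the other. Groups of 3 and libraries of 4054000 to 13355000 estimated reads limit the precision.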
